A study of Homo sapiens with 8 samples.

Results

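The loss of ISL1 was set directly against the loss of PDX1: 3 libraries of ISL1 knockout (KO) cells and 3 libraries of PDX1 KO cells, 6 of the 21 libraries in the series, chosen by genotype and vector label alone. All came from the established human embryonic line H1, differentiated through pancreatic stages to islet-like cells, and all 6 cultures received the control vector, blue fluorescent protein (BFP) without ISL1, on day 11 and were harvested on day 18. The series design calls the replicates biological. The other libraries used beside them were WT BFP (2 libraries, no edit), PAX6 KO BFP (3, in the fit only for the spread) and the same genotypes given an ISL1 and BFP vector, labelled ISL1 OE (ISL1 KO, 3 libraries, and PDX1 KO, 2 libraries). PAX6 KO ISL1 OE (3 libraries) and WT ISL1 OE (2 libraries) entered every fit that held ISL1 OE libraries, only for the spread. How the edits were made and how many clones each line holds are not given in the sources used here, so genotype and line cannot be told apart in any result below.

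ISL1 is a LIM-homeodomain factor and PDX1 a homeodomain factor, and both recognise sites built on a TAAT core. PDX1 acts in early pancreatic progenitors and later in beta cells, where it drives the insulin gene, while ISL1 is switched on as endocrine cells leave the cell cycle and is needed for the alpha, beta and delta fates. Islet endocrine precursors can also take on an enterochromaffin-like state, named for the serotonin-making cells of the gut, in which TPH1 hydroxylates tryptophan, DDC makes serotonin from the product, and a vesicular monoamine transporter loads it into granules.

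The sequences upstream of 4 genes on which the comparison turns are shown because 3 of them are hormone genes that moved in opposite directions and the fourth is the gene for the rate-limiting enzyme of serotonin synthesis. They are RefSeq sequence on GRCh38.p14, minus strand, 5′ to 3′, ending where the GENCODE 29 gene model begins, or at the RefSeq start for TPH1. Capitals mark TAAT or its reverse complement ATTA.
INS, chr11:2161342-2161459: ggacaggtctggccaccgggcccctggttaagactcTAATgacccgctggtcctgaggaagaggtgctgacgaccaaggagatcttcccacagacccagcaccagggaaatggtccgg
GCG, chr2:162152405-162152497: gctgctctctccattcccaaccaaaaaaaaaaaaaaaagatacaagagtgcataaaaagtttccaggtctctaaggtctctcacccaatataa
SST, chr3:187670400-187670644: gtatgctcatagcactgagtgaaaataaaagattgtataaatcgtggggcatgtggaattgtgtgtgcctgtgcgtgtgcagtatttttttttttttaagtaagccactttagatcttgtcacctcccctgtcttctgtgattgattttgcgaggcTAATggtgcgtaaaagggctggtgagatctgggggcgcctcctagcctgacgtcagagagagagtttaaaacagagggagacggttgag
TPH1, chr11:18046270-18046519: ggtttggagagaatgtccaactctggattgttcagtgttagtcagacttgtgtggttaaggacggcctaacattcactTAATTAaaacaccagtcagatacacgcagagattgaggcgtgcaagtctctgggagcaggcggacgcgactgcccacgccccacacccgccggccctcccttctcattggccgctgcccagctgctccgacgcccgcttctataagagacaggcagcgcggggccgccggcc
Over the whole 250 bases before the RefSeq start, INS, GCG and TPH1 each held 2 matches, those of TPH1 overlapping in a single TAATTA, and SST held 1. A match was common: TAAT on either strand stood in 47.4% of all 35116 promoters in the table, in 35.5% of 14291 promoters of genes tested, in 33.9% of those of genes higher in ISL1 KO and in 36.2% of those of genes lower in ISL1 KO.

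Totals ran from 51161482 to 66818614 counts per library over the 6 libraries, with 25280 to 26083 genes detected. Across genes, log2 levels correlated at 0.984 or more within each genotype and at 0.961 to 0.969 between them. Levels below are normalised read counts (CPM, scaled to library size by TMM), and log2 fold changes are ISL1 KO minus PDX1 KO ± SE (n = 3 and 3). The SE is derived from the test statistic, whose spread comes from all 11 control-vector libraries. Where no tool is named beside an adjusted p, it comes from the quasi-likelihood test of edgeR. Each genotype had a single library read on lanes 5 to 8 (ISL1 KO replicate 1 and PDX1 KO replicate 3), the others being on lanes 1 to 4. At an adjusted p under 0.05, 5200 of 21200 genes (24.5%) differed, 2801 higher in ISL1 KO (13.2%) and 2399 lower (11.3%), with a median log2 fold change of 0.01. The 3 libraries of one genotype lay entirely to one side of the 3 of the other in 9044 genes (42.7%). With a lane term 4584 genes were called, and on lanes 1 to 4 alone, which hold 4 of the 6 libraries, 889 of 21887. That fit also held the PAX6 KO and WT control-vector libraries of those lanes. Leaving out ISL1 KO replicate 1 gave 2923 and leaving out PDX1 KO replicate 3 gave 3406. The calls also depended on the spread they were tested against. A fit over all 8 groups takes in the libraries labelled ISL1 OE, 2 of which stand apart from their replicates. It called 1266 of 22184 genes. List counts below are to be read beside the share of all genes called in the same fit.

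**Figure D1:**
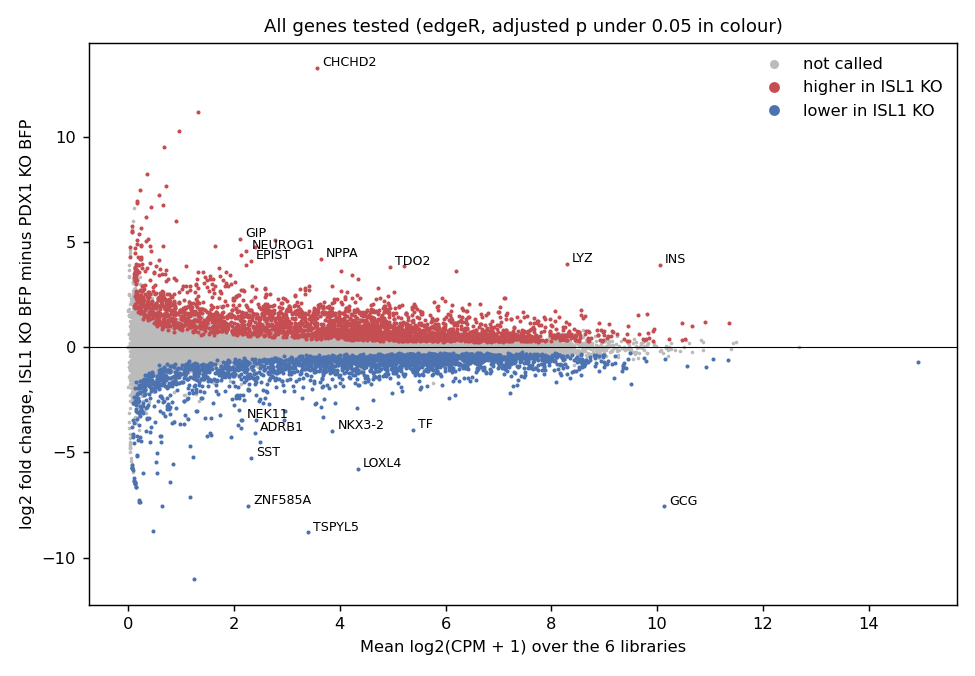
Each point is a gene, placed by its mean log2(CPM + 1) over the 6 libraries (horizontal) and its log2 fold change, ISL1 KO BFP minus PDX1 KO BFP (vertical), red where called higher in ISL1 KO, blue where called lower and grey where not called. INS (3.90) and GCG (−7.57) stand far apart among abundant genes; the heights of genes near 0 counts in a group, CHCHD2 among them, depend on the prior count of the fit.

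The altered genes were examined first. ISL1 RNA (ENSG00000016082, GRCh38 chromosome 5, 51383391 to 51394738) was 65.6, 66.7 and 72.8 CPM in ISL1 KO and 138, 155 and 121.2 CPM in PDX1 KO, against 285 and 482 CPM in WT. The groups did not overlap, and the log2 fold change was −1.02 ± 0.21 (adjusted p = 0.00519, and 0.0887 in the fit over 8 groups). ISL1 RNA was thus reduced against WT in both lines, by 2.49 ± 0.23 and 1.47 ± 0.23 on the log2 scale (adjusted p = 2.86e-05 and 0.000506; 27.1% and 32.9% of all genes were called in these 2 comparisons, which share the WT libraries). PDX1 RNA (ENSG00000139515, chromosome 13, 27920020 to 27926231) was 87.4, 77.5 and 98.5 CPM in ISL1 KO and 92.1, 103 and 103 CPM in PDX1 KO. These ranges overlap, the difference was −0.18 with a 95% interval of −0.47 to 0.11 (adjusted p = 0.35), and PDX1 KO lay at 0.24 ± 0.15 against WT (adjusted p = 0.243). A small edit can leave the transcript in place, so the amount of PDX1 RNA does not check the PDX1 KO label.

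Insulin and the other islet hormones parted. Of 7 hormone genes, all 7 were called: INS was higher in ISL1 KO, and GCG, SST, PPY, PYY, GHRL and IAPP were lower there than in PDX1 KO, with a list median of −4.52. INS, the insulin gene of beta cells (ENSG00000254647, chromosome 11, 2159779 to 2161341), stood at 4465, 4821 and 3361 CPM in ISL1 KO and at 367, 310 and 171 CPM in PDX1 KO. The lowest ISL1 KO library thus lay above every PDX1 KO library, while WT, at 13270 and 10390 CPM, lay above both. The log2 fold change was 3.90 ± 0.28 (adjusted p = 7.39e-06). Since INS overlaps a read-through gene and the counting is not known to use strand, reads from the 2 models may be shared. In bulk RNA, fewer cells making a hormone and less RNA per cell cannot be told apart, here or in any list below.

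GCG, which encodes glucagon in alpha cells (ENSG00000115263, chromosome 2, 162142873 to 162152404), showed the reverse. Its levels were 87.7, 73.2 and 83.5 CPM in ISL1 KO and 13610, 17610 and 15090 CPM in PDX1 KO, against 33890 and 47980 CPM in WT. PDX1 KO cells thus kept abundant glucagon RNA, and each ISL1 KO library held far less. The difference was −7.57 ± 0.53 (adjusted p = 7.24e-06). Against WT, INS was at −1.49 ± 0.27 in ISL1 KO and −5.39 ± 0.31 in PDX1 KO (adjusted p = 0.00218 and 1.76e-06; the first was lost in the fit over 8 groups, 0.398), and GCG at −8.97 ± 0.57 and −1.41 ± 0.44 (adjusted p = 2.52e-06 and 0.0285). The GCG difference of PDX1 KO from WT was lost without PDX1 KO replicate 1 (adjusted p = 0.0752) or replicate 3 (0.0718). It was also lost in the fit over 8 groups (0.378). On lanes 1 to 4, where WT had a single library, the difference was −1.62.

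SST, which encodes the delta cell hormone somatostatin (ENSG00000157005, chromosome 3, 187668906 to 187670399), was 0.361, 0.551 and 0.523 CPM in ISL1 KO and 24.4, 23.7 and 6.65 CPM in PDX1 KO. PDX1 KO replicate 3 was the low one, still above all ISL1 KO libraries, and the difference was −5.25 ± 0.60 (adjusted p = 0.000163). PYY, which encodes peptide YY, was 0.771, 0.389 and 1.10 CPM against 15.8, 20.7 and 15.9 CPM (−4.52 ± 0.32, adjusted p = 7.28e-06). PPY, the pancreatic polypeptide gene of gamma cells, gave 1 count over the 3 ISL1 KO libraries and 237 over those of PDX1 KO, a ratio per total count of 261 with a 95% interval of 46.3 to 10300 that covers counting error only. GHRL, the ghrelin gene of epsilon cells, was 41.7, 38.7 and 51.0 CPM in ISL1 KO and 136, 139 and 81.8 CPM in PDX1 KO. It was the mildest of the 6 lower hormones (−1.44 ± 0.20, adjusted p = 0.000639, and 0.117 in the fit over 8 groups).

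IAPP, whose product amylin is released with insulin, did not follow INS. It was 0.082, 0.162 and 0.131 CPM in ISL1 KO and 0.309, 0.498 and 0.276 CPM in PDX1 KO, against 7.84 and 7.52 CPM in WT. Both knockouts thus held little IAPP, with the lower level in the line that held more INS. The difference of −1.53 ± 0.38 (adjusted p = 0.0126) rested on these low counts and was lost without ISL1 KO replicate 1 (adjusted p = 0.057) or PDX1 KO replicate 2 (0.0561), in the fit over 8 groups (0.415), on lanes 1 to 4 alone (0.136) and with limma on TPM (0.225).

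**Figure D2:**
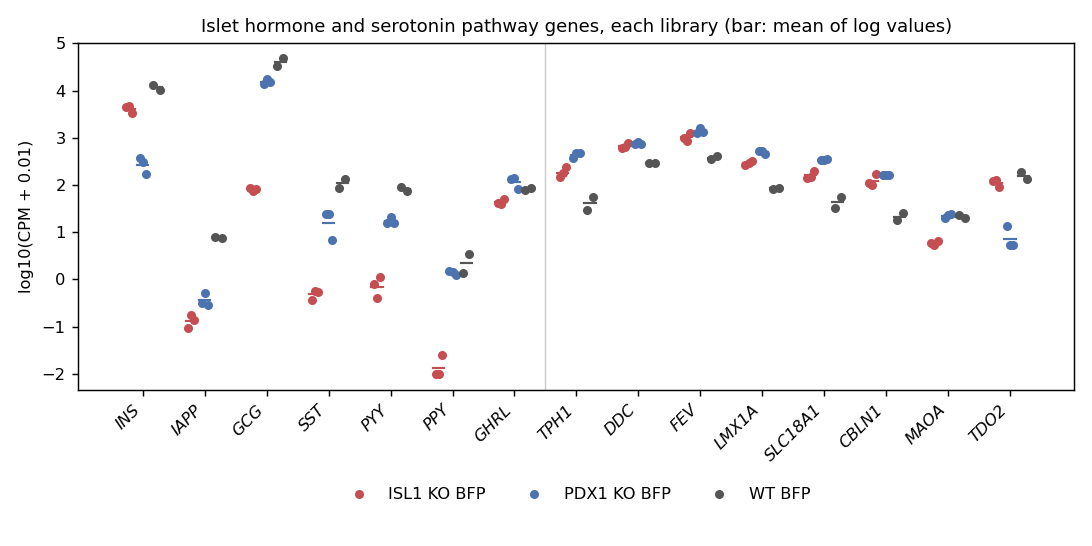
Level of each gene in every library as log10(CPM + 0.01), with ISL1 KO BFP in red, PDX1 KO BFP in blue and WT BFP in grey, hormone genes left of the vertical line and serotonin and tryptophan genes right of it; short bars are means of the log values. INS is the hormone gene at which ISL1 KO lies above PDX1 KO, and TPH1 is highest in PDX1 KO (377 to 478 CPM), then ISL1 KO (145 to 236), then WT (29.5 and 56.9).

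The first step of serotonin synthesis was higher in each knockout than in WT, and higher in PDX1 KO than in ISL1 KO. TPH1, the tryptophan hydroxylase (ENSG00000129167, chromosome 11, 18017564 to 18042426), was 145, 181 and 236 CPM in ISL1 KO and 377, 478 and 475 CPM in PDX1 KO. Every PDX1 KO library lay above every ISL1 KO library, and both groups lay above the WT libraries. The difference was −1.25 ± 0.25, with a 95% interval of −1.79 to −0.70 (adjusted p = 0.00439). Against WT the gene was at 2.12 ± 0.30 in ISL1 KO and 3.36 ± 0.32 in PDX1 KO (adjusted p = 0.000442 and 2.03e-05). The difference between the knockouts missed the threshold in the fit over 8 groups (adjusted p = 0.136) and on lanes 1 to 4 alone (0.0518), at log2 fold changes of −1.28 and −1.04.

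SLC18A1, the vesicular transporter that loads serotonin into granules, had the same order: 139, 147 and 203 CPM in ISL1 KO, 337, 344 and 353 CPM in PDX1 KO and 32.8 and 55.5 CPM in WT. The difference was −1.08 ± 0.24 (adjusted p = 0.00798), and it too missed the threshold over 8 groups (0.141) and on lanes 1 to 4 (0.118). LMX1A, a LIM-homeodomain factor of enterochromaffin cells, was 268, 287 and 321 CPM against 516, 537 and 461 CPM (−0.79 ± 0.13, adjusted p = 0.00157, and lost in the fit over 8 groups). INSM1, a zinc finger factor of endocrine precursors, was at 1327, 1386 and 1545 CPM against 2587, 2670 and 2804 CPM (−0.92 ± 0.17, adjusted p = 0.00262, likewise lost). In these 3 genes, too, the knockout groups did not overlap.

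Other parts of the program did not separate the knockouts at this threshold. DDC, the decarboxylase that completes serotonin synthesis, was 620, 623 and 758 CPM in ISL1 KO and 755, 819 and 736 CPM in PDX1 KO, ranges that overlap. The difference was −0.21 with a 95% interval of −0.48 to 0.07 (adjusted p = 0.259). FEV, the ETS factor of serotonin-making cells, was at −0.44 (−0.86 to −0.02, adjusted p = 0.118), and CBLN1, a secreted cerebellin, at −0.36 (−0.81 to 0.08, adjusted p = 0.215). Both passed it without ISL1 KO replicate 3 (FEV at adjusted p = 0.0493, CBLN1 at 0.0285). The intervals reach well below 0, so the missed threshold does not show that the levels were alike. TPH2, the neuronal tryptophan hydroxylase, had no count in any of the 6 libraries.

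In the list of 15 enterochromaffin-like factors and markers 2 were higher and 4 lower (median −0.36), beside 13.2% and 11.3% of all genes. LMX1A, INSM1 and CHGA were among the lower, and 2 were lower without ISL1 KO replicate 1 or 2. The higher were TAC1 (1.93 ± 0.38, adjusted p = 0.00408) and TRPA1 (0.61 ± 0.18, adjusted p = 0.0277), both without overlap between the knockout groups. TRPA1 lost its call without ISL1 KO replicate 2 or 3, without PDX1 KO replicate 2 or 3, and by limma on TPM. None of the list was called over 8 groups, and on lanes 1 to 4, 2 were lower and none higher. Of the 7 serotonin synthesis genes tested 3 were called, TPH1, PTS and PCBD1, all lower in ISL1 KO, with a list median of −0.43. The other called members serve the tetrahydrobiopterin cofactor: PTS makes it (−0.58 ± 0.15, adjusted p = 0.0164) and PCBD1 recycles it (−0.43 ± 0.14, adjusted p = 0.0458). PCBD1 was called neither in the fit over 8 groups nor with any single library of the 6 left out. PTS was lost without ISL1 KO replicate 1, ISL1 KO replicate 2 or PDX1 KO replicate 2, which left TPH1 as the 1 call of the list. PTS was also lost over 8 groups (adjusted p = 0.51) and on lanes 1 to 4 (0.171), and no member of the list was called in either setting. On the breakdown side MAOA, the monoamine oxidase with the higher affinity for serotonin, was 5.92, 5.43 and 6.38 CPM in ISL1 KO and 19.5, 23.5 and 23.8 CPM in PDX1 KO. That was a difference of −1.91 ± 0.17 (adjusted p = 3.96e-05), with WT, at 23.2 and 19.8 CPM, in the range of PDX1 KO. MAOB, the second monoamine oxidase, went the other way (0.94 ± 0.20, adjusted p = 0.00619), a call lost over 8 groups (0.183) and on lanes 1 to 4 (0.163). TDO2, which diverts tryptophan to kynurenine, was 120, 130 and 91.5 CPM in ISL1 KO and 13.2, 5.28 and 5.45 CPM in PDX1 KO (3.83 ± 0.36, adjusted p = 4.87e-05). Thus a tryptophan-consuming enzyme was higher in the line with less TPH1, and WT, at 188 and 132 CPM, was near the ISL1 KO level.

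Among serotonin receptors, 2 of the 7 tested were called, in opposite directions, beside 24.5% of all genes, so the count does not set this list apart. HTR6 was 2.33, 2.56 and 1.09 CPM in ISL1 KO and 0.327, 0.109 and 0.217 CPM in PDX1 KO (3.20 ± 0.45, adjusted p = 0.000599). HTR1A, an inhibitory receptor, was lower in ISL1 KO (−2.41 ± 0.43, adjusted p = 0.00213). Both are low-level transcripts that fell below the level filter used for limma on TPM, so neither was tested in that setting.

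Genes of secretory granules and of the enzymes they carry were mostly lower in ISL1 KO than in PDX1 KO. Of 13 granin and prohormone-processing genes, 10 were lower and 2 higher in ISL1 KO (median −0.74), beside 11.3% and 13.2% of all genes. PCSK1, the convertase that cuts proinsulin, was 77.6, 103 and 109.4 CPM in ISL1 KO and 282, 259 and 299 CPM in PDX1 KO (−1.54 ± 0.19, adjusted p = 0.000327, and 0.0632 in the fit over 8 groups). CPE, the carboxypeptidase that trims the cut peptides, differed by −1.48 ± 0.18 (adjusted p = 0.000212) and the granin SCG2 by −1.12 ± 0.17 (adjusted p = 0.00103). CHGA, the pan-endocrine granin, was 21830, 21600 and 30240 CPM against 41220, 41450 and 38250 CPM, without overlap. Its difference (−0.72 ± 0.18, adjusted p = 0.0153) was lost without ISL1 KO replicate 1 (0.0713) or replicate 2 (0.0608), in the fit over 8 groups (0.168) and on lanes 1 to 4 (0.183). In the exocytosis list 13 of 26 were lower and 1 higher (median −0.48). The vesicle protein SV2A (−0.93 ± 0.18, adjusted p = 0.00386, lost over 8 groups and on lanes 1 to 4) and SYT13 (−0.75 ± 0.12, adjusted p = 0.0015) were among the lower, and the synaptotagmin SYT4 was the higher one (1.32 ± 0.14, adjusted p = 0.000109). Over 8 groups 2 of the granin list and 4 of the exocytosis list were called, and on lanes 1 to 4, 4 and 2. Without ISL1 KO replicate 1 the lower calls were 6 and 5, without ISL1 KO replicate 2 they were 6 and 7, and without PDX1 KO replicate 3 they were 8 and 6. Summed exocytosis genes ran from 2152 to 2634 CPM in ISL1 KO, 3022 to 3182 in PDX1 KO and 1490 to 1838 in WT. Mean WT levels lay below both knockouts for PCSK1 (73.2 CPM), CHGA (19370), SV2A (28.8) and SYT13 (48.9). For CPE (1184 CPM) WT lay above both, and for SCG2 (666) and SYT4 (187) between them.

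Cell identity lists did not move as blocks in the beta lineage. Among 28 beta cell genes 8 were called higher and 4 lower in ISL1 KO (median 0.23), beside 13.2% and 11.3% of all genes. The calls were 5 and 2 over 8 groups and 6 and 3 on lanes 1 to 4. DLK1, an imprinted Notch-family ligand, accompanied INS (149, 132 and 132 CPM against 39.1, 26.9 and 16.6 CPM, 2.32 ± 0.25, adjusted p = 0.000124). UCN3, a peptide of mature beta cells, gave 318 counts over the ISL1 KO libraries and 1 over those of PDX1 KO, a ratio of 289 with a counting interval of 51.5 to 11500. SLC30A8, the zinc transporter of insulin granules, went against them (44.5, 56.6 and 63.7 CPM against 169, 159 and 165 CPM, −1.58 ± 0.18, adjusted p = 0.000195). MAFA was low in both lines and not called (−0.54, interval −1.18 to 0.11, adjusted p = 0.215), and NKX6-1, a beta cell homeodomain factor, was at −0.50 (−0.97 to −0.03, adjusted p = 0.116, and 0.0162 when only the 6 libraries were fitted). ABCC8, the sulfonylurea receptor subunit of the KATP channel, was higher in ISL1 KO (0.73 ± 0.16, adjusted p = 0.00697, lost over 8 groups).

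Alpha cell genes followed GCG in larger part: 11 of 20 were called lower and 2 higher in ISL1 KO (median −0.59), against 6 lower in the fit over 8 groups and 6 on lanes 1 to 4. TTR, which encodes transthyretin, was 420, 379 and 397 CPM in ISL1 KO and 1283, 1428 and 1248 CPM in PDX1 KO (−1.73 ± 0.16, adjusted p = 3.87e-05, and 0.103 in the fit over 8 groups). LOXL4, a lysyl oxidase, was 1.61, 2.85 and 2.43 CPM against 140, 132 and 106 CPM (−5.78 ± 0.32, adjusted p = 1.12e-06). GPR119, a lipid-sensing receptor of endocrine cells, was 7.20, 15.1 and 7.77 CPM against 64.1, 51.9 and 57.7 CPM (−2.53 ± 0.25, adjusted p = 6.8e-05). Of 11 gamma and epsilon genes 8 were lower and 1 higher (median −0.98), with 3 lower over 8 groups and 3 on lanes 1 to 4. Of 10 delta cell genes 2 were higher and 2 lower, beside 13.2% and 11.3% of all genes. CASR, the calcium-sensing receptor, and PCP4 were higher (2.74 ± 0.29 and 2.4 ± 0.23, adjusted p = 0.000109 and 5.82e-05, PCP4 being lost over 8 groups at 0.0781), and SST and the fatty acid receptor FFAR4 were lower (FFAR4 −2.68 ± 0.44, adjusted p = 0.00145).

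Endocrine progenitor factors split as well. NEUROG3, the factor that starts endocrine differentiation, was 287, 300 and 364 CPM in ISL1 KO and 123, 112.8 and 66.6 CPM in PDX1 KO (1.65 ± 0.25, adjusted p = 0.000862). WT, at 107 and 162 CPM, lay below every ISL1 KO library. NEUROD1, which acts downstream of it, was not called (−0.21, interval −0.61 to 0.20, adjusted p = 0.449), nor was PAX6 (−0.29, −0.77 to 0.19, adjusted p = 0.372). NKX2-2 was lower in ISL1 KO (−0.80 ± 0.24, adjusted p = 0.0322) but lost that call without any of 4 of the 6 libraries, with adjusted p of 0.0635 to 0.114, and over 8 groups (0.223) and on lanes 1 to 4 (0.254). Over the 30 islet transcription factors 6 were higher and 6 lower, and over the 16 endocrine progenitor genes 3 and 5, beside 13.2% and 11.3% of all genes. The lower calls were 2 and 3 without ISL1 KO replicate 1 or PDX1 KO replicate 3, and 3 and 3 without ISL1 KO replicate 2 or PDX1 KO replicate 2. Over 8 groups 3 of the transcription factor list, all higher, and 2 of the progenitor list were called, and on lanes 1 to 4, 4 and 3. CDKN1A, the cell cycle inhibitor p21, was on the lower side at 52.5 to 64.0 CPM against 110.9 to 121.3 CPM (−1.0 ± 0.11, adjusted p = 0.00014).

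**Figure D3:**
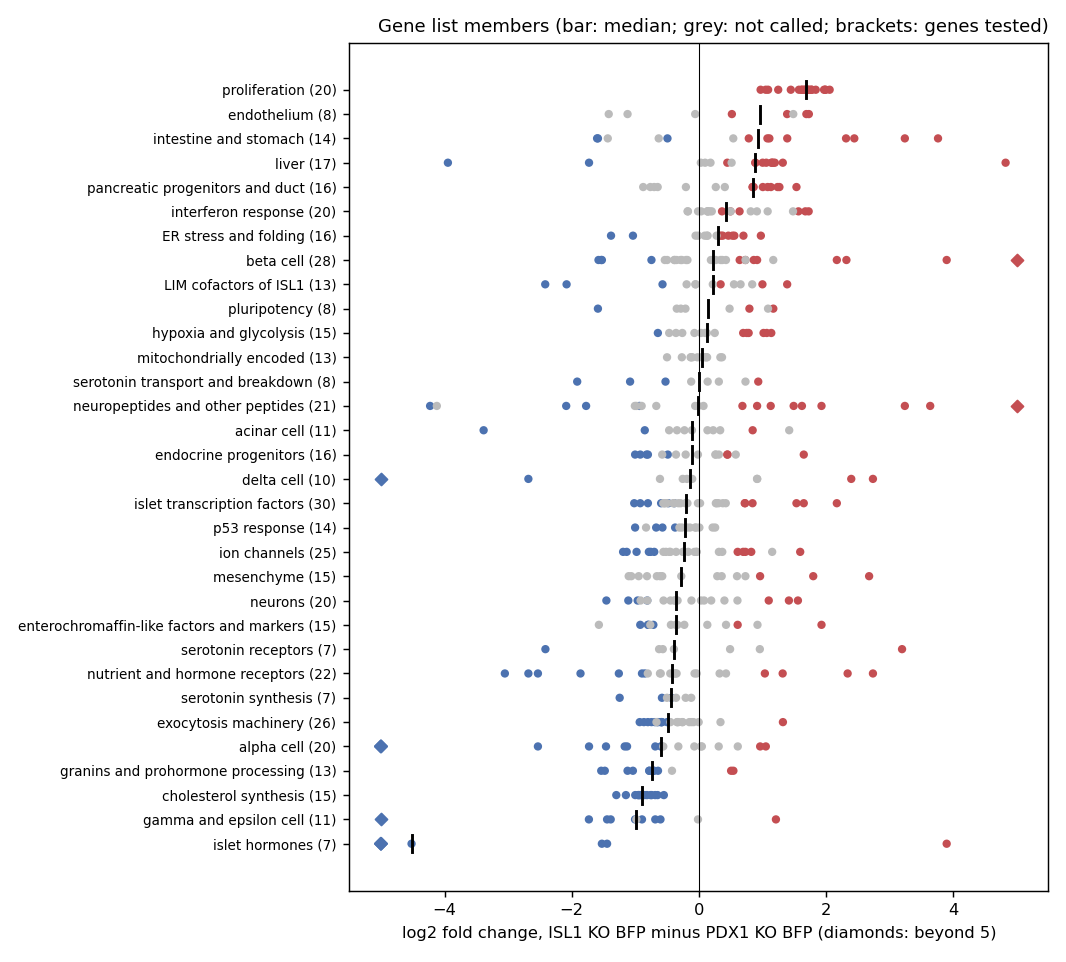
Each point is a list member at its log2 fold change, ISL1 KO BFP minus PDX1 KO BFP, red where called higher, blue where called lower, grey where not called; the black bar is the list's median and diamonds at the edges lie beyond 5. The proliferation list (median 1.69) lies to the right of 0 and the cholesterol synthesis list (median −0.89) to the left, with all their members.

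Cell cycle genes were higher in ISL1 KO as a whole list. All 20 proliferation genes were called higher and none overlapped between the knockout groups, with fold changes of 0.97 to 2.06 and a median of 1.69, beside 13.2% of all genes called higher. CCNB1, the mitotic cyclin, was 119.3, 109.7 and 84.2 CPM in ISL1 KO and 40.0, 38.9 and 36.0 CPM in PDX1 KO. WT had 85.2 and 62.0 CPM, above every PDX1 KO library. The difference was 1.45 ± 0.20 (adjusted p = 0.000565). AURKB, the chromosome passenger kinase, differed by 2.06 ± 0.29 (adjusted p = 0.000638), BIRC5, survivin, by 1.99 ± 0.28 (adjusted p = 0.000645), and MCM5, of the replicative helicase, by 1.66 ± 0.24 (adjusted p = 0.00071). Summed over the list, the level was 1183 to 1697 CPM in ISL1 KO, 459 to 579 in PDX1 KO and 727 to 1090 in WT. Against WT, CCNB1 was at 0.51 ± 0.22 in ISL1 KO (adjusted p = 0.114) and −0.94 ± 0.22 in PDX1 KO (adjusted p = 0.00598). On lanes 1 to 4, where WT had a single library, the PDX1 KO value was −0.65. All 20 stayed called with any single library left out, 16 in the fit over 8 groups and 11 on lanes 1 to 4.

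Cholesterol synthesis was lower in ISL1 KO, again across its whole list. All 15 genes were called lower (median −0.89, range −1.30 to −0.55), beside 11.3% of all genes. HMGCS1, which makes HMG-CoA at the head of the pathway, was 222, 269 and 219 CPM in ISL1 KO and 561, 490 and 521 CPM in PDX1 KO, and WT had 295 and 317 CPM. The knockouts lay on either side of WT, at −0.37 ± 0.16 (adjusted p = 0.109) and 0.78 ± 0.17 (adjusted p = 0.00381), and the difference between them was −1.15 ± 0.15 (adjusted p = 0.000355). In the fit over 8 groups neither the PDX1 KO difference from WT (adjusted p = 0.219) nor that between the knockouts (0.0505) was called. On lanes 1 to 4, where WT had a single library, the PDX1 KO difference from WT was 0.73. INSIG1, the sterol-sensing retention protein, differed by −1.30 ± 0.19 (adjusted p = 0.000776), and DHCR7, which catalyses the last step of one branch, was 207, 205 and 227 CPM against 387, 401 and 368 CPM (−0.86 ± 0.12, adjusted p = 0.000613). The sum over the list was 3573 to 3873 CPM in ISL1 KO, 6764 to 6919 in PDX1 KO and 5158 to 5638 in WT. Leaving out single libraries left 14 or 15 called, the fit over 8 groups left 5 and lanes 1 to 4 left 4.

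**Figure D4:**
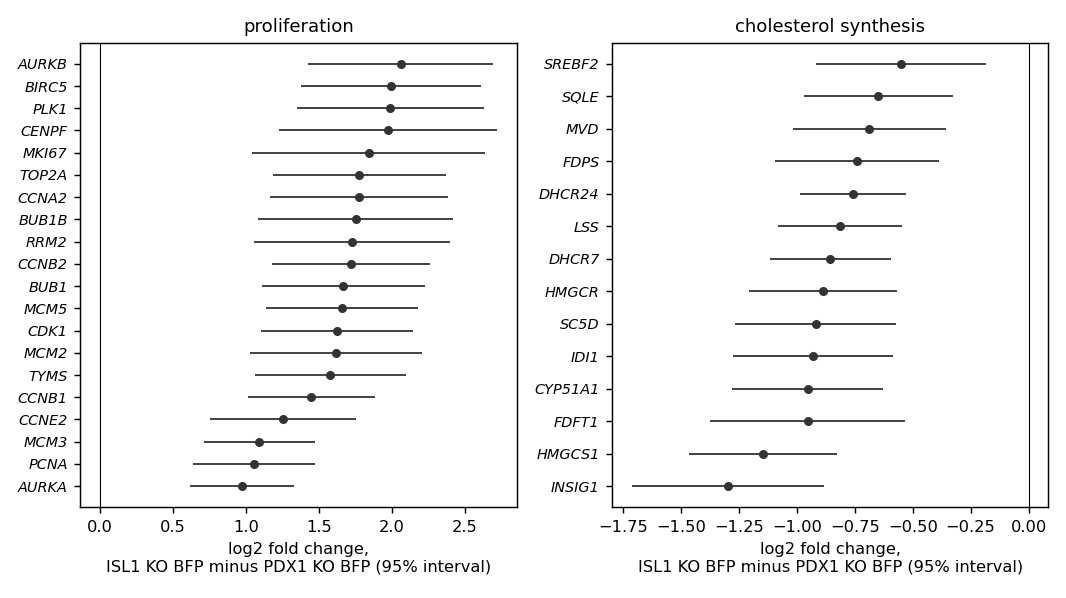
Log2 fold change, ISL1 KO BFP minus PDX1 KO BFP, with its 95% interval, for the 20 members of the proliferation list (left) and 14 members of the cholesterol synthesis list (right), each panel on its own axis. Every interval on the left lies above 0, from AURKA (0.97) to AURKB (2.06), and every interval on the right lies below it, from INSIG1 (−1.30) to SREBF2 (−0.55).

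Set against PDX1 KO, markers of duct, liver, intestine and stomach were called higher in ISL1 KO more often than genes as a whole (13.2%). In the pancreatic progenitor and duct list 9 of 16 were called, all higher in ISL1 KO (median 0.85). They included the duct keratin KRT19 (975, 914 and 1088 CPM against 543, 477 and 461 CPM, 1.01 ± 0.12, adjusted p = 0.000189, lost over 8 groups) and the Notch effector HES1 (133, 97.5 and 86.7 CPM against 46.7, 47.1 and 50.6 CPM, 1.13 ± 0.18, adjusted p = 0.00128). Liver genes had 11 of 17 higher and 2 lower (median 0.89, summed level 12840 to 18030 CPM against 8596 to 9409, and 31170 to 33990 in WT). FGB, fibrinogen beta, was 4433, 4098 and 3294 CPM against 1788, 1629 and 1834 CPM (1.17 ± 0.17, adjusted p = 0.000616, lost over 8 groups). TF, transferrin, was the opposite case at 9.86, 10.7 and 9.71 CPM against 160, 132 and 175 CPM (−3.95 ± 0.22, adjusted p = 1.12e-06). Intestine and stomach genes had 8 of 14 higher and 3 lower (median 0.93). The gastrin gene GAST was 68.6, 72.01 and 36.0 CPM against 6.35, 7.33 and 4.95 CPM (3.24 ± 0.30, adjusted p = 4.72e-05), whereas OLFM4 and GKN1, of crypt and gastric mucosa, had no count. Fewer were called over 8 groups (2 for duct, 3 for liver, 6 for intestine and stomach) and on lanes 1 to 4 (4, 7 and 6). The duct sum was 2005 to 2221 CPM in ISL1 KO, 1094 to 1212 in PDX1 KO and 2145 to 2253 in WT. That of intestine and stomach was 522 to 707, 429 to 476 and 980 to 1211 CPM in the same order. The ISL1 KO sum thus overlapped WT for duct and lay below WT for liver and for intestine and stomach. Mean GAST in WT was 263 CPM.

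Mesenchyme varied widely between the PDX1 KO libraries. Its 15 genes summed to 2505 to 3566 CPM in ISL1 KO, 862 to 3218 in PDX1 KO and 2270 to 3304 in WT. Of the 15, 3 were called, all higher in ISL1 KO, beside 13.2% of all genes called higher. The list's median was −0.28, but it ran from −0.69 without PDX1 KO replicate 3 to 0.91 without PDX1 KO replicate 1, and was 0.31 with a replicate block and 0.23 by limma on TPM, so its sign is not settled. The pericyte receptor PDGFRB was 44.0, 49.2 and 25.7 CPM against 8.67, 2.82 and 7.13 CPM (2.68 ± 0.42, adjusted p = 0.00108). Neuron genes had 3 of 20 higher and 4 lower, and acinar genes 1 of 11 higher and 2 lower with sums of 90.2 to 136 CPM and 94.8 to 134 CPM. Over all genes 13.2% were called higher and 11.3% lower, so counts this small do not set either list apart. The lipase gene PNLIP of acinar cells had no count. The part of these cells in the hormone, proliferation and cholesterol differences was not tested.

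Of 21 peptide genes outside the classical islet hormones 9 were called higher in ISL1 KO and 4 lower, with a list median of −0.01. Over 8 groups 4 and 1 were called, and on lanes 1 to 4, 5 and 1. CCK, cholecystokinin, was 259, 246 and 255 CPM in ISL1 KO and 17.2, 26.0 and 17.6 CPM in PDX1 KO (3.64 ± 0.25, adjusted p = 5.4e-06). GAL, galanin, was 289, 276 and 371 CPM against 106, 130 and 96.1 CPM (1.49 ± 0.22, adjusted p = 0.000763, and 0.156 in the fit over 8 groups). GIP, the incretin of duodenal K cells, was 13.5, 12.5 and 12.4 CPM against 0.399, 0.389 and 0.276 CPM (5.15 ± 0.24, adjusted p = 3.49e-07), with 28.5 and 48.2 CPM in WT. CRH, corticotropin-releasing hormone, went the other way (−2.09 ± 0.27, adjusted p = 0.000397, and 0.108 in the fit over 8 groups). Receptors had 4 of 22 higher and 7 lower (3 and 4 over 8 groups and on lanes 1 to 4), beside 13.2% and 11.3% of all genes. The gastrin and CCK receptor gene CCKBR was 4.46, 6.55 and 7.35 CPM against 22.1, 22.7 and 21.97 CPM (−1.86 ± 0.21, adjusted p = 0.000137).

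The list of LIM-domain partners, which share cofactors with ISL1, had 3 of 13 higher and 3 lower (1 and 2 over 8 groups and on lanes 1 to 4). Over all genes 13.2% were higher and 11.3% lower. LMO2, a LIM-only protein, was 1.44, 1.04 and 1.44 CPM in ISL1 KO and 6.73, 7.10 and 7.13 CPM in PDX1 KO, against 35.2 and 45.8 CPM in WT (−2.42 ± 0.23, adjusted p = 5.54e-05). LDB2, which bridges LIM proteins, differed by −2.08 ± 0.30 (adjusted p = 0.0007), while LMO3 and LMO4 were higher (1.39 ± 0.28 and 1.0 ± 0.20, adjusted p = 0.00434 and 0.00405). LMO4 lost its call over 8 groups (0.0676) and on lanes 1 to 4 (0.106).

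Stress and metabolic lists had smaller shifts. Of 16 ER folding genes 8 were higher and 2 lower (median 0.30), with HERPUD1, of ER-associated degradation, at 0.98 ± 0.14 (adjusted p = 0.000564) and the kinase-like TRIB3 at −1.04 ± 0.19 (adjusted p = 0.0025, and 0.0676 on lanes 1 to 4). In the interferon list 6 of 20 were called, all higher, led by IFIT3 (28.2, 23.9 and 17.5 CPM against 8.15, 7.16 and 6.45 CPM, 1.68 ± 0.20, adjusted p = 0.000252) and IRF1 (1.73 ± 0.25, adjusted p = 0.00071). Of 15 hypoxia and glycolysis genes 6 were higher and 1 lower, among them LDHA, lactate dehydrogenase (1.02 ± 0.14, adjusted p = 0.000436, and 0.177 in the fit over 8 groups). In the p53 list 4 of 14 were called, all lower in ISL1 KO, CDKN1A first. These counts stand beside 13.2% of all genes called higher and 11.3% called lower, 24.5% in either direction. The higher calls in the ER and interferon lists were 5 and 3 without ISL1 KO replicate 1 or PDX1 KO replicate 3, and 4 and 5 without PDX1 KO replicate 1. In the fit over 8 groups at most 2 members of each of these 4 lists were called, and on lanes 1 to 4 at most 3.

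The largest changes by fold included genes that were silent in one line. CHCHD2, which encodes a mitochondrial protein, gave 26244 counts over the 3 ISL1 KO libraries and 2 over those of PDX1 KO, a ratio per total count of 11900 with a counting interval of 3300 to 98500. It was also near 0 in WT (0.139 and 0.191 CPM), so of these 3 genotypes ISL1 KO was the one that held it. The gene has processed pseudogenes with which reads may be shared. TSPYL5, a nucleosome assembly family gene, gave 39 counts in ISL1 KO and 15488 in PDX1 KO (ratio 437, interval 319 to 615), and ZNF585A, a zinc finger gene, 20 and 3424 (ratio 188). WT held 39.6 and 41.4 CPM of TSPYL5 and 14.2 and 15.9 CPM of ZNF585A, so these 2 were low in ISL1 KO. CHCHD2 and TSPYL5 differed the same way in the libraries of the 2 lines labelled ISL1 OE: CHCHD2 was 120.6 to 126.5 CPM in ISL1 KO ISL1 OE and 0 and 0.753 CPM in PDX1 KO ISL1 OE, and TSPYL5 0.310 to 0.669 CPM against 87.5 and 9.15 CPM.

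Other leading rises were NGFR, NEUROG1, NPPA, EPIST, LYZ, GJA5 and TNC. NEUROG1, a proneural factor of sensory neurons, was 12.2, 11.0 and 18.8 CPM against 1.22, 0.436 and 0.079 CPM (4.59 ± 0.68, adjusted p = 0.000844), with 1.01 and 1.53 CPM in WT. It was thus higher in each ISL1 KO library than in any PDX1 KO or WT library. LYZ, lysozyme, was 1353, 1420 and 961 CPM against 60.7, 77.2 and 104 CPM (3.95 ± 0.33, adjusted p = 2.35e-05), with WT at 465 and 407 CPM. NPPA, natriuretic peptide A, and GJA5, connexin 40, were highest in ISL1 KO replicate 3, at 118.3 and 28.3 CPM. Its partners held 21.3 and 28.0 CPM of NPPA and 5.28 and 6.94 CPM of GJA5, and NPPA lost its call without that library, without PDX1 KO replicate 1, without PDX1 KO replicate 3 or in the fit over 8 groups. TNC, the matrix protein tenascin C, was 169, 171 and 91.5 CPM against 14.3, 4.40 and 11.1 CPM (3.86 ± 0.45, adjusted p = 0.000179).

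The remaining leading falls were ADRB1, NKX3-2, TMEM236, KLK12 and NEK11. ADRB1, the beta-1 adrenergic receptor, was 0.771, 0.892 and 0.828 CPM in ISL1 KO and 12.8, 16.3 and 13.4 CPM in PDX1 KO (−4.09 ± 0.19, adjusted p = 3.49e-07). NKX3-2, a homeodomain factor of foregut mesenchyme, was 2.94, 2.51 and 4.21 CPM against 37.6, 49.5 and 66.2 CPM (−3.99 ± 0.25, adjusted p = 2.52e-06). WT lay at 1.01 and 0.765 CPM for ADRB1 and at 1.09 and 1.23 CPM for NKX3-2, so every PDX1 KO library lay above the ISL1 KO and WT libraries in both genes.

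The same pair of genotypes was also read in libraries labelled ISL1 OE, which the main fit left out. ISL1 RNA was 60.6, 71.5 and 82.8 CPM in ISL1 KO ISL1 OE, against 65.6 to 72.8 CPM with the control vector, and 124.1 and 293 CPM in PDX1 KO ISL1 OE replicates 2 and 4, against 121.2 to 155 CPM. In ISL1 KO the ranges overlap, replicate 2 of PDX1 KO lay within its control-vector range and replicate 4 above it, so the ISL1 counts do not check the ISL1 OE label. No source used here says whether vector transcripts would be counted. In a fit of all libraries labelled ISL1 OE, with WT and PAX6 KO there for the spread, edgeR called 23 of 21522 genes (0.107%) between the 2 genotypes. At an unadjusted p under 0.05 there were 2629, but the 2 PDX1 KO ISL1 OE libraries stood far apart. INS and GCG stood at 47180 and 99600 CPM in replicate 4, and at 316 and 10570 CPM in replicate 2. TSPYL5 was 9.15 and 87.5 CPM in them and CHCHD2 0.753 and 0 CPM, so replicate 4 stood apart in TSPYL5 as well, and whether its label is right could not be settled. Without replicate 4, which leaves a single PDX1 KO library assumed to vary like the other groups, 60 genes were called (0.265%), and 4672 of the 5181 control-vector calls tested (90.2%) had the same sign, against 3501 of 5164 (67.8%) with it. With PAX6 KO ISL1 OE replicate 3 also left out, an alternative added after seeing the data, 1959 were called (8.82%). Of these, 1322 were control-vector calls in the same direction (25.4% of the control-vector calls and 67.5% of the ISL1 OE ones) and 58 were opposite.

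**Figure D5:**
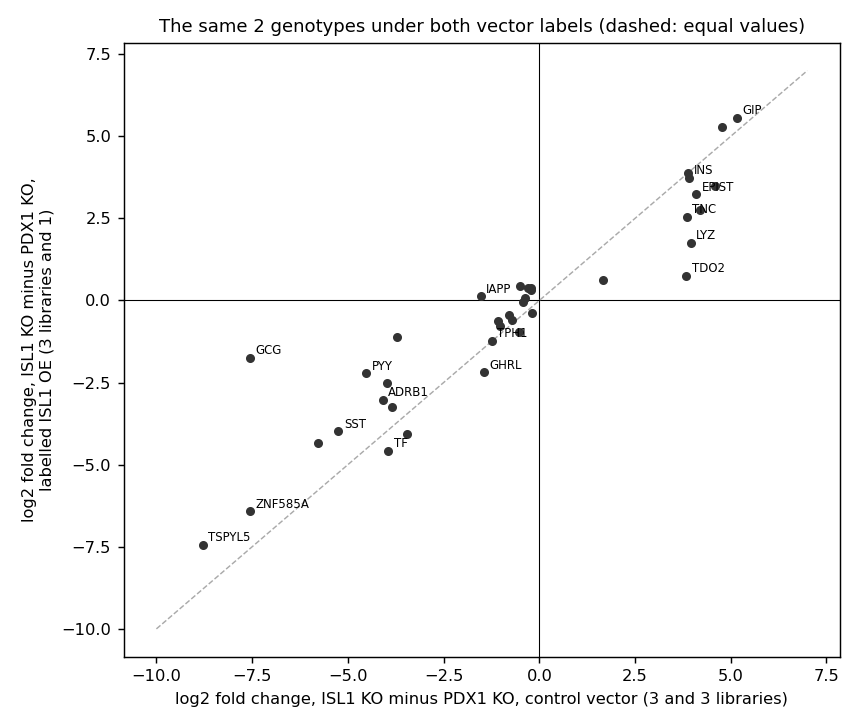
Log2 fold change, ISL1 KO minus PDX1 KO, with the control vector (horizontal) and in libraries labelled ISL1 OE without PDX1 KO ISL1 OE replicate 4 (vertical), for most panel genes and most genes of largest change (CHCHD2 and PPY, near 0 counts in a group, are not drawn); the dashed line marks equal values and crowded points carry no name. INS lies near the line (3.90 and 3.73), whereas GCG is at −7.57 and −1.74.

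In the libraries labelled ISL1 OE, INS was 3534, 4388 and 4652 CPM in ISL1 KO, above PDX1 KO replicate 2 and below replicate 4. GCG was 2025, 2471 and 4990 CPM in ISL1 KO ISL1 OE, above the 73.2 to 87.7 CPM of ISL1 KO BFP but below both PDX1 KO ISL1 OE libraries. TPH1 was 49.6, 66.2 and 84.5 CPM in ISL1 KO and 157 and 21.2 CPM in PDX1 KO, so the order held for replicate 2 and turned for replicate 4. All 20 proliferation genes had a positive value without replicate 4 (median 1.32) and 19 with it. All 15 cholesterol genes had a negative value without it (median −0.78) and 13 with it. The order of INS and TPH1 thus depended on which PDX1 KO library was taken, and that of GCG did not.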

How the data were processed

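RNA was extracted with a Zymo kit and amplified with SMART-Seq v4, per the labels' protocols, a chemistry that marks neither strand nor molecules. Per the file headers, the authors deposited estimated counts and TPM, each per gene and lane. The submitters' processing notes name STAR 1.6.1 and GRCh38 as the tool and build behind these estimated counts as deposited by the authors; the counting program and any further steps are not given in the sources used here. For each library the 4 lanes were added up and rounded to whole numbers. A further 12 columns (3 libraries) could be tied to no sample and were left out. Of 38592 gene identifiers, 38568 were in the name table and 34390 had GENCODE 29 coordinates.

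The 11 control-vector libraries (4 groups) were fitted with edgeR 4.0.16 in R 4.3.3 (TMM, filterByExpr, 21200 genes, common dispersion 0.0378, quasi-likelihood F test, Benjamini-Hochberg adjustment, threshold 0.05). Libraries labelled ISL1 OE were kept out of this fit because 2 were known to stand apart; the fit over all 8 groups is an alternative. Each SE from edgeR is the absolute log2 fold change divided by the square root of the F statistic, and intervals of fold changes are built on it. Intervals are 95% intervals, and those of count ratios are exact and cover counting error only. The method was tested on simulated data. Alternatives were DESeq2 1.42.0 (size factors, Wald test), library size scaling, no filter, fewer or more libraries, a replicate block and limma 3.58.1 on log2(TPM + 1). Those on lane sets and on PAX6 KO ISL1 OE replicate 3 were added after seeing the data.

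The text names the altered genes, a panel of 23, the 12 largest rises and 12 largest falls, and up to 5 members of each of 32 lists by adjusted p; some genes that these rules select are not reported here. A large rise or fall had to be called, carry a symbol, reach 2 in mean log2(CPM + 1) and show no overlap between groups. TPH2, OLFM4, GKN1 and PNLIP, and members shown only in plots, fell outside this rule and were chosen after their values were seen. The members and lists were chosen with earlier results of these data known, and lists share genes.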

Additional observations from a re-analysis of the deposited data

Results flagged for a closer look

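The difference between ISL1 KO and PDX1 KO was itself different under the 2 vector labels (the control-vector log2 fold change minus the one in libraries labelled ISL1 OE, edgeR's quasi-likelihood test over 21 libraries) in 0.523% of 22184 genes, 10 of them named here. The difference of log2 fold changes was 6.75 for GAST, 6.44 for GIP, 6.27 for INS, 4.87 for FABP1 (a fatty acid binding protein of gut and liver), 4.65 for APOH (a plasma apolipoprotein), 4.35 for TDO2, 3.28 for ESAM (an endothelial adhesion molecule), 2.73 for LYZ, 2.10 for AMBP (a plasma proteinase inhibitor precursor) and −3.14 for KLK12 (a kallikrein protease). PDX1 KO ISL1 OE replicate 4, the library with 47180 CPM of INS, whose label could not be settled, enters all of these. Without it, an alternative added after seeing the data, 72 genes were called, and of the 10 only ESAM (3.54, adjusted p = 0.000238), TDO2 (3.08, adjusted p = 0.011) and KLK12 (−2.59, adjusted p = 0.0447) stayed past the threshold. INS and GIP then had adjusted p = 1 and GAST 0.974.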

How the results depend on the processing

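Of 5200 genes called between ISL1 KO BFP and PDX1 KO BFP, the count was 889 on lanes 1 to 4 alone, 1266 in the fit over all 8 groups and 2923 to 4807 with a single library of the 6 left out. It was 5208 with DESeq2 size factors, 5211 by library size, 6125 by DESeq2's Wald test, 5008 unfiltered, 5212 with the 6 libraries alone, 4776 by limma on TPM and 4584 with a lane term. Deviations of same-numbered libraries from their group means correlated at −0.10 to 0.05, and 2 of 6 libraries correlated best with their own number. With 3 libraries a group, these correlations do not settle whether same-numbered libraries belong together. The fit with a replicate block called 4969. Between the ISL1 OE groups the count of 23 became 60 and 1959 as 1 and then 2 libraries were left out. Of 144 named calls, 65 were lost in the fit over 8 groups and 49 on lanes 1 to 4, and 69 held under every alternative. A call that an alternative did not test counts as not held. Of the 12 that limma on TPM did not keep, 4 were tested and missed the threshold, and the rest fell below its level filter. MT-ND4L, which was not called (−0.13), changed sign without PDX1 KO replicate 2 (0.005; lowest −0.23 without PDX1 KO replicate 1); the cause was not tested. With 3 libraries a group and unmarked molecules, low genes such as IAPP and HTR6 carry the least depth.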
